A study of Mus musculus with 47 samples.

Results

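The gonadal fat of male mice of 2 inbred strains was compared for how far its gene expression responded to dietary fat. For every gene, the change from 10% to 44% fat in CAST/EiJ males was set against the same change in C57BL/6J males. The means compared come from 15 of the 47 libraries of the series, and the spread was estimated over all 47. The 15 were 3 from CAST/EiJ males on 10% fat, 4 from CAST/EiJ males on 44% fat, and 4 from C57BL/6J males on each diet. All were polyA RNA libraries of the gonadal fat pad of wild-type mice with no treatment other than diet. The labels name the diets 10% fat + fiber and 44% fat + fiber, so that both carried added fiber, and the design text describes the richer one as high in sugar as well as fat. The mice went onto their diet at 6 weeks of age, and the tissue was taken at 15 weeks. CAST/EiJ is an inbred strain derived from wild Mus musculus castaneus, and C57BL/6J is the common laboratory strain. Whether the libraries of a group are from different animals is not stated, so p-values measure the spread between libraries, which may be technical in part.

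White fat stores triglyceride in adipocytes and releases hormones such as leptin and adiponectin. When fat is plentiful in the diet, adipocytes enlarge, their own synthesis of fatty acids is usually lowered, macrophages gather and take up lipid, and collagen is laid down around the cells. In males the gonadal depot is the epididymal pad, which lies against the epididymis, and C57BL/6J males are widely used because this pad becomes inflamed on a rich diet. A diet-by-strain difference is given below on the log2 scale as the diet effect in CAST/EiJ minus that in C57BL/6J. A negative value means that a gene fell further, or rose less, in CAST/EiJ. Levels are given as CPM, a gene's counts as a share of the library's total after scaling by the trimmed mean of M-values (TMM). This is not per gene length, so levels are compared between libraries and never between genes.

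The 15 libraries held 32.7 M to 56 M counts each, and mitochondrially encoded genes took 4.3% to 7.52% of the counts. Defining genes of adipocytes were high in all 15 libraries, with summed levels of the 16 marker genes of 37900 to 44000 CPM in CAST/EiJ males on 10% fat, 42400 to 47800 CPM in CAST/EiJ males on 44% fat, 31500 to 36600 CPM in C57BL/6J males on 10% fat and 27800 to 33700 CPM in C57BL/6J males on 44% fat. One library stood apart. Of a list of 20 epididymis and testis markers 6 are in the table and 4 were tested. In CAST/EiJ 10% fat replicate 3 these summed to 552 CPM, against 1.38 to 4.26 CPM in the other CAST/EiJ males, and the epididymal secretory protein gene Rnase10 made up 550 CPM of it. Teddm2, an epididymal membrane protein gene outside that list, stood at 539 CPM in the same library. A smaller sum of 32.4 CPM was seen in C57BL/6J 10% fat replicate 3, against 2.99 to 3.75 CPM in the other 3 libraries of that group. CAST/EiJ males on 10% fat have only 3 libraries. The difference without the first of these 2 libraries is therefore given for the called genes described in full, and as a count for the other called genes. It is not given for single genes without a called difference.

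The 2 strains parted on different genes. In CAST/EiJ males the mitochondrial enzyme gene Marc1 fell 26.4-fold on 44% fat and the adipokine gene Rarres2 rose. In C57BL/6J males the mitotic kinase gene Cdk1, the proton pump gene Atp6v0d2 and the secreted protein gene Serpinf1 rose. None of the 3 was called in CAST/EiJ males. Of the genes just named, only Marc1 kept a called difference between the strains without CAST/EiJ 10% fat replicate 3. The diet-by-strain difference passed an adjusted p below 0.05 in edgeR's quasi-likelihood test for 62 of 18769 genes tested, or 0.330%. It was positive for 11 genes (0.0586%) and negative for 51 (0.272%), and 2046 genes had an unadjusted p below 0.05. Of the 62 genes, 59 are protein-coding and 56 differed by at least 2-fold. Without CAST/EiJ 10% fat replicate 3 the difference was called for 5 genes. Diet alone changed 388 genes in CAST/EiJ males (2.07%), of which 159 rose (0.847%) and 229 fell (1.22%), and 711 genes in C57BL/6J males (3.79%), of which 394 rose (2.10%) and 317 fell (1.69%). In 38 of the 62 genes the diet effect passed the test in CAST/EiJ and not in C57BL/6J, 9 of them with a positive difference and 29 with a negative one. In 18 it passed in C57BL/6J and not in CAST/EiJ, 1 with a positive and 17 with a negative difference. Capg passed in both strains in opposite directions, and 5 genes passed in neither strain alone. Without 1 library at a time the count for diet ran from 112 to 650 in CAST/EiJ, lowest without 10% fat replicate 3 and highest without 10% fat replicate 2. In C57BL/6J it ran from 104 without 44% fat replicate 4 to 1529 without 44% fat replicate 3. The count for the difference moved with the tool: DESeq2 called 190 genes, among them 58 of the 62, while limma-voom called none, with 1637 genes at an unadjusted p below 0.05. It also moved with the libraries that set the spread, which were all 47 in the reported fit. The same edgeR test called 0 genes on the 15 libraries alone and 2 on the 23 male libraries.

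**Figure D1:**
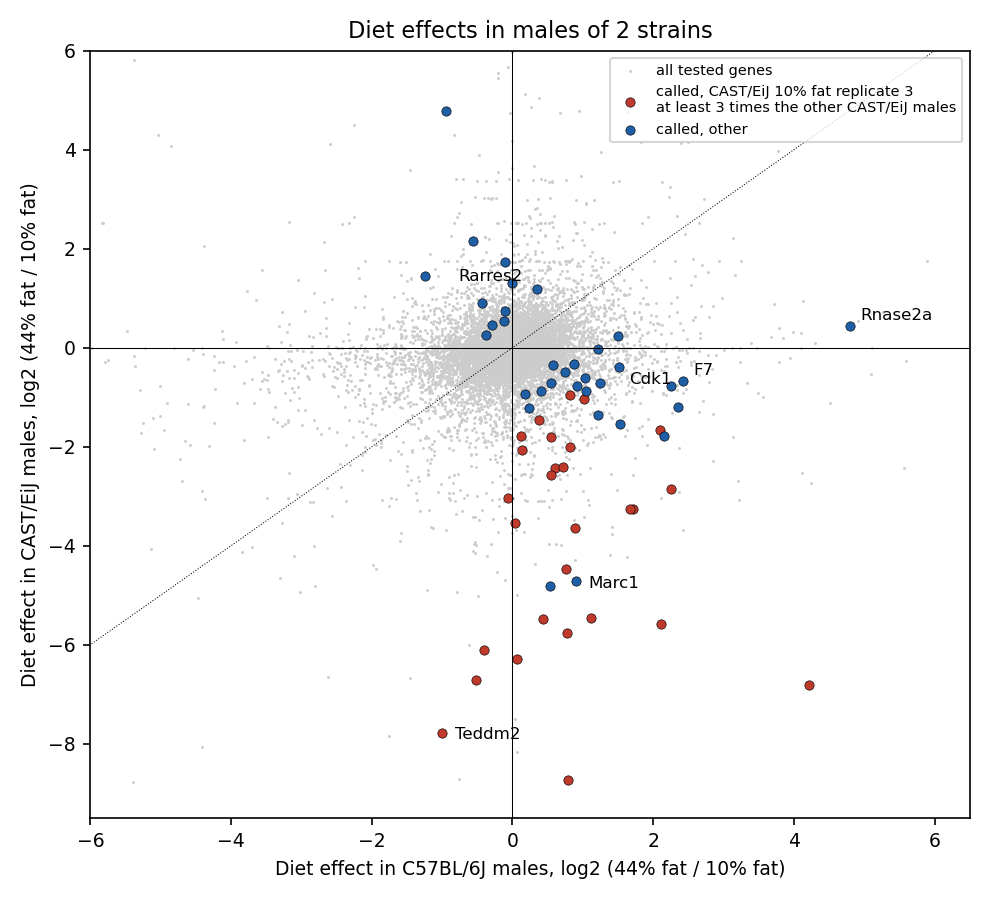
Fitted diet effect in C57BL/6J males (horizontal axis) against that in CAST/EiJ males (vertical axis), both as log2 44% over 10% fat, 1 point a gene, without 14 genes outside the axes. The 62 called genes are coloured, red where CAST/EiJ 10% fat replicate 3 was at least 3 times every other CAST/EiJ male library, and 51 of them lie below the dotted line of equal effects.

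Marc1 had the smallest adjusted p. It encodes an enzyme of the outer mitochondrial membrane that reduces N-hydroxylated compounds, and RefSeq names it Mtarc1 (ENSMUSG00000026621, chromosome 1 of GRCm38, 184786767 to 184811313, minus strand). The 250 bases before its RefSeq start are shown because the difference was best supported for this gene. They lie at chr1:184811301-184811550 on the minus strand of GRCm38.p6 and are printed 5′ to 3′, with matches to the Sp1 box GGGCGG and to the sterol regulatory element core TCACNCCAC in capitals.
Marc1: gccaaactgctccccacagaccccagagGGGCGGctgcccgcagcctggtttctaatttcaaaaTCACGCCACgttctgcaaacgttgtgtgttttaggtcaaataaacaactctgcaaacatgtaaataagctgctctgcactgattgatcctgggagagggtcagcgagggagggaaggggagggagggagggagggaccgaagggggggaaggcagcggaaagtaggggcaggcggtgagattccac
Both strands of the window were searched, and the E-box CACGTG and the NF-Y box CCAAT had no match in it. The motif search had been planned for called genes of fatty acid and cholesterol synthesis, of which there were none. Its use for Marc1 and for the cell division genes below was chosen after the data were seen. GGGCGG starts 222 bases and TCACNCCAC 186 bases before the transcription start, counting its nearest upstream base as 1. Of 32851 RefSeq windows of this length, 32.7% hold GGGCGG and 1.05% hold TCACNCCAC. A match describes the letters in the window and does not show that a factor binds there.

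Marc1 stood at 58.2, 10.1 and 30.1 CPM in CAST/EiJ males on 10% fat and at 0.521, 1.36, 1.23 and 1.85 CPM on 44% fat. It stood at 17.7, 32.1, 36.6 and 13.4 CPM in C57BL/6J males on 10% fat and at 42.6, 73.6, 16.5 and 54.4 CPM on 44% fat. Every CAST/EiJ library on 44% fat was thus below every other library, and the C57BL/6J groups overlapped. Marc1 fell in CAST/EiJ males by 4.72 on the log2 scale (SE 0.53, adjusted p = 3.77e-07), a 26.4-fold change, and its change of 0.90 (SE 0.40, adjusted p = 0.198) in C57BL/6J males did not pass the test. The difference between the strains was -5.63 (SE 0.67, edgeR adjusted p = 4.85e-06). On 10% fat the strains differed by 0.40 (adjusted p = 0.471), and on 44% fat by -5.23 (adjusted p = 8.01e-11). Leaving out each of the 15 libraries in turn gave differences of -6.05 to -4.92, all past the threshold, with adjusted p of at most 9.53e-05. The adjusted p was 1.58e-15 in DESeq2, but 0.0794 in limma-voom and 0.0538 in an edgeR fit to the 15 libraries alone, so that the call is lost in both of the latter.

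**Figure D2:**
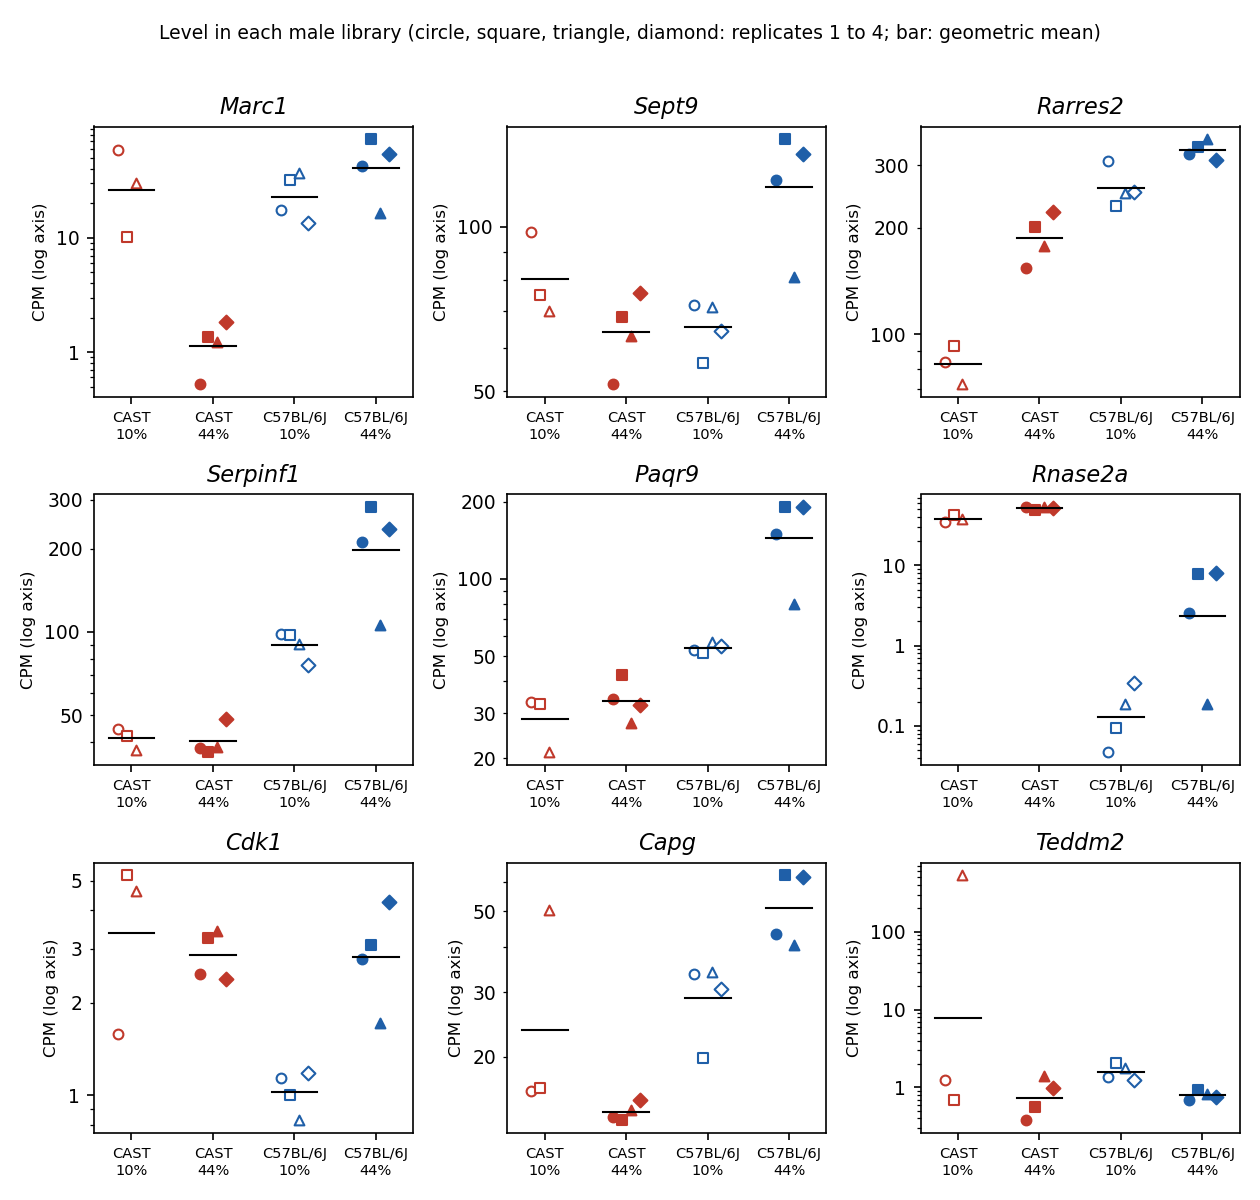
Level of 9 genes in CPM, on a log axis, in each of the 15 male libraries by strain and diet; symbols stand for replicates, open for 10% and filled for 44% fat, and bars for geometric means. For Marc1 the 4 CAST/EiJ libraries on 44% fat lie between 0.521 and 1.85 CPM, below all others, and for Teddm2 a single CAST/EiJ library stands at 539 CPM.

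Only 2 of the 62 genes, Marc1 and Gm20743, passed the test in each of the 15 fits that left out 1 library, and 16 genes passed in at least 12 of them. Gm20743 is a processed transcript on chromosome 1 (164863133 to 164936775). It was listed at 0.101, 0.1 and 0.0468 CPM in CAST/EiJ males on 10% fat and at 0 in all 4 on 44% fat. The C57BL/6J males had 0.769, 0.464, 1.12 and 0.941 CPM on 10% fat and 1.33, 1.17, 0.988 and 1.29 CPM on 44% fat. These are few counts in CAST/EiJ, and 1 group is at 0, so no fold is given. Without CAST/EiJ 10% fat replicate 3, 5 genes passed, all among the 62, with Marc1 (-5.68), F7 (-3.27), Sept9 (-1.29) and Gm20743 among them. In the fit without that library 58 of the 62 genes kept the sign of their difference, and 47 had an unadjusted p below 0.05.

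The sample numbers in the labels fall into 3 ranges, whose meaning is not given, and each range holds all 4 groups. The sign of the difference was the same in all 3 ranges for 52 of the 62 genes. The 62 were called over these same libraries, so this count is not independent of how they were chosen. Marc1 differed by -7.94, -4.12 and -4.42 within the ranges, Rarres2 by 0.81, 0.47 and 1.21, Cdk1 by -0.61, -2.22 and -2.36, Atp6v0d2 by -2.06, -3.80 and -3.57, and Serpinf1 by -1.33, -1.70 and -0.56. With the range as a term in the fit, 29 genes were called. Most groups have 1 library in a range, so these within-range values have no error of their own.

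**Figure D3:**
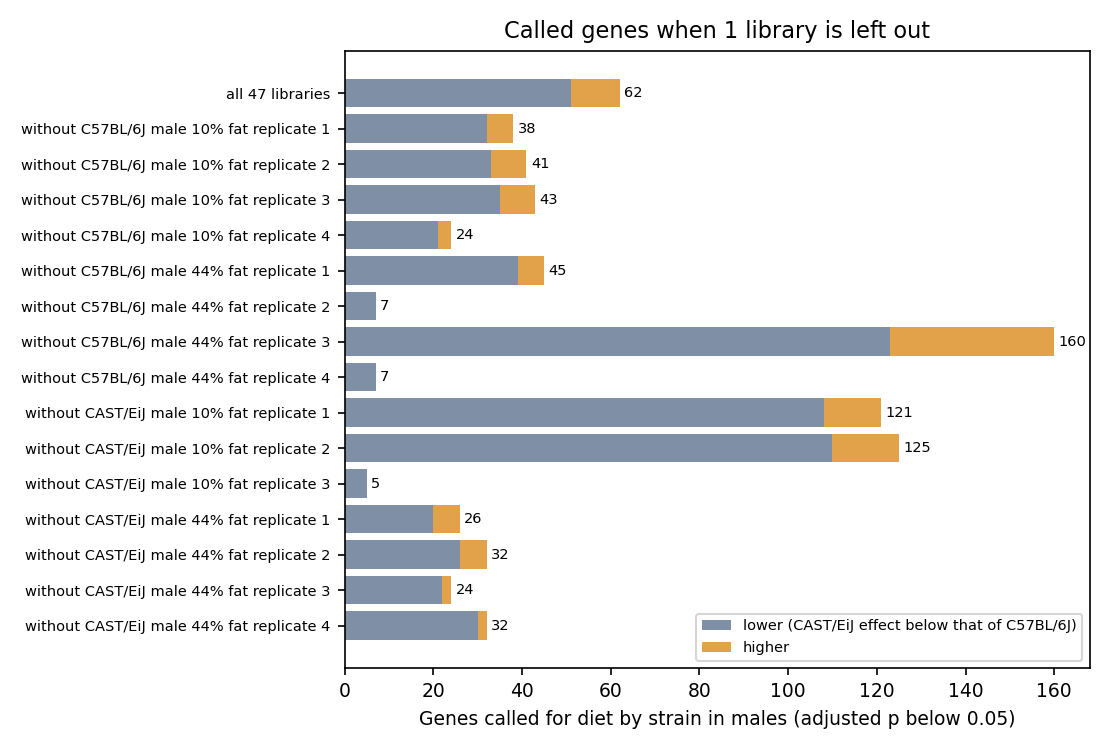
Number of genes called for the diet-by-strain difference in males (horizontal axis) with all libraries and when each of the 15 is left out in turn, each bar split into genes with a negative and a positive difference. The counts run from 5 without CAST/EiJ 10% fat replicate 3 to 160 without C57BL/6J 44% fat replicate 3, against 62 with all libraries.

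In 28 of the 62 genes CAST/EiJ 10% fat replicate 3 was at least 3 times as high as every other CAST/EiJ male library, a pattern held by 352 of all genes tested (1.88%). For these genes that 1 library raised the CAST/EiJ level on 10% fat, and with it the fall with diet, by an amount that varied between genes. Teddm2 stood at 1.23, 0.7 and 539 CPM in CAST/EiJ males on 10% fat and at 0.377, 0.565, 1.39 and 0.986 CPM on 44% fat, while the C57BL/6J males ranged from 0.695 to 2.04 CPM. Its difference was -6.78 (SE 1.4, edgeR adjusted p = 0.0194) with that library and 0.77 without it. The uncharacterised gene 9230104L09Rik (214 CPM in that library) likewise went from -6.36 to 0.44. The other members include the ETS transcription factors Etv4 and Etv5, the transcription factors Egr2, Runx2 and Arnt2, and the glycosyltransferases Gcnt4 and St8sia6. Also among them are the sulfotransferase Hs3st3a1, the transporters Slc7a11 and Slc29a4, the adaptor subunits Ap1s2 and Ap3b2, and the steroid dehydrogenase Akr1c18. The rest are the desmosomal Pkp1, the lymphocyte genes Ptpn22 and Klrb1a, and Ly6g5b, Emid1, Basp1, Nxf3, Emb, Trim36, Gdap1, Ceacam19, 4930427A07Rik and Capg. Etv4 stood at 12.1 CPM, Egr2 at 28.5 CPM, Runx2 at 11.5 CPM and Ptpn22 at 22.9 CPM in that library. Klrb1a and Ceacam19 have a group at 0 in all its libraries and are given no fold. All 28 had a negative difference, which follows largely from the rule that picked them, a high level in 1 control-diet CAST/EiJ library. None of them was called without the library. In it the 28 genes of the inflammatory mediator list summed to 1110 CPM, against 447 and 630 CPM in the other 2 libraries of its group. What part the epididymal RNA has in each of these genes was not tested.

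The other 34 genes, 11 with a positive and 23 with a negative difference, did not have that pattern. Beside Marc1 and Gm20743, those with a called fall in CAST/EiJ included Aldh1a7, an aldehyde dehydrogenase gene. Aldh1a7 stood at 22.1, 16 and 18 CPM in CAST/EiJ males on 10% fat and at 6.43, 8.35, 10.1 and 7.44 CPM on 44% fat, without overlap. All 8 C57BL/6J libraries were higher, at 192 to 324 CPM, and the groups overlapped. Its difference was -1.45 (SE 0.34, adjusted p = 0.0459). Dfna5, which encodes gasdermin E, differed by -1.29. Both calls were lost without CAST/EiJ 10% fat replicate 3, with -1.47 (adjusted p = 0.0884) for Aldh1a7 and -1.17 (adjusted p = 0.164) for Dfna5. Apart from Marc1, Cdk1, Atp6v0d2, Il1rn and Capg, the single genes of the 62 described here were chosen after their values were seen.

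Of the genes called for a rise with diet in CAST/EiJ and not called in C57BL/6J, Rarres2 had the smallest adjusted p for the CAST/EiJ diet effect. Rarres2 encodes chemerin, an adipokine that attracts leukocytes (chromosome 6, 48569696 to 48572789). It stood at 83.6, 92.8 and 72.2 CPM in CAST/EiJ males on 10% fat and at 154, 201, 178 and 221 CPM on 44% fat. C57BL/6J males had 308, 230, 250 and 252 CPM on 10% fat and 323, 337, 356 and 311 CPM on 44% fat. Neither strain's diet groups overlapped, and every C57BL/6J library was above every CAST/EiJ library. Rarres2 rose by 1.18 (SE 0.13, adjusted p = 3.77e-07) in CAST/EiJ, and its value in C57BL/6J was 0.35 (SE 0.12, adjusted p = 0.0748). The difference was 0.83 (SE 0.17, adjusted p = 0.0206). It passed in 10 of the 15 fits without 1 library, and without CAST/EiJ 10% fat replicate 3 it was 0.75 with an adjusted p of 0.0887.

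Paqr4, a member of the progestin and adipoQ receptor family, stood at 14.1, 17.7 and 14.1 CPM in CAST/EiJ males on 10% fat and at 22, 26.4, 19.5 and 35.5 CPM on 44% fat. It ranged from 20.1 to 26.7 CPM in C57BL/6J, and the difference was 0.87 (SE 0.17, adjusted p = 0.0189). The cytochrome P450 gene Cyp2s1 stood at 8.16, 8.96 and 6.02 CPM and then at 15.8, 17.9, 18.9 and 23.8 CPM in CAST/EiJ, with a difference of 1.32 (SE 0.29, adjusted p = 0.0324). The sulfotransferase gene Chst4 stood at 2.81, 4.43 and 2.95 CPM and then at 9.65, 12.4, 9.59 and 13.8 CPM, with a difference of 1.84 (SE 0.42, adjusted p = 0.0454). In these 3 genes the CAST/EiJ groups did not overlap, and the C57BL/6J groups did. Tppp, which encodes a tubulin polymerisation protein, had a difference of 1.34 (SE 0.31, adjusted p = 0.0459), with 49.5, 60.1 and 69.8 CPM against 167, 94.1, 101 and 85.3 CPM in CAST/EiJ. The ion channel gene Asic2 (2.71), Blcap (0.74) and Mob3b (0.65) also rose in CAST/EiJ. The cadherin gene Cdh6 (2.70, SE 0.6, adjusted p = 0.0371) passed in neither strain alone, and RP23-366O14.5 has a group at 0 in all its libraries. The imprinted noncoding gene Peg13 had the only positive difference that came from a called fall in C57BL/6J: its diet effect there was -0.37 (adjusted p = 0.0223), and the difference was 0.62 (SE 0.14, adjusted p = 0.0407). Peg13 stood at 112, 101, 103 and 117 CPM in C57BL/6J males on 10% fat and at 91, 72.6, 96.1 and 74.8 CPM on 44% fat. None of these was called without CAST/EiJ 10% fat replicate 3. The differences were then 0.82 for Paqr4, 1.47 for Tppp and 0.66 for Peg13 (adjusted p = 0.0769 each), 2.72 for Cdh6 (adjusted p = 0.0819), 2.82 for Asic2 (adjusted p = 0.0887), 1.18 for Cyp2s1 (adjusted p = 0.123), 1.76 for Chst4 (adjusted p = 0.124), 0.64 for Mob3b (adjusted p = 0.136) and 0.56 for Blcap (adjusted p = 0.169).

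Of the 17 genes called for a rise with diet in C57BL/6J and not called in CAST/EiJ, 5 are described together because of their known roles in DNA replication and cell division. Only Cdk1 is on the cell cycle list, and the other 4 were put beside it after their values were seen. Cdk1 encodes the kinase that drives entry into mitosis, Asf1b a histone chaperone, Chaf1a the largest subunit of chromatin assembly factor 1, Dtl the substrate receptor of a ubiquitin ligase that acts in S phase, and Kif20b a kinesin of cell division. Genes of this kind are known to share promoter motifs, so the 250 bases before the RefSeq start are shown for 3 of them, printed 5′ to 3′ with matches on either strand in capitals. The motifs searched were the NF-Y box CCAAT, the E2F box TTTNNCGC and the cell cycle homology region TTTGAA, of which the last 2 were added after the data were seen. Cdk1 lies at chr10:69352913-69353162 on the minus strand, Asf1b at chr8:83955444-83955693 on the plus strand and Dtl at chr1:191575545-191575794 on the minus strand of GRCm38.p6.
Cdk1: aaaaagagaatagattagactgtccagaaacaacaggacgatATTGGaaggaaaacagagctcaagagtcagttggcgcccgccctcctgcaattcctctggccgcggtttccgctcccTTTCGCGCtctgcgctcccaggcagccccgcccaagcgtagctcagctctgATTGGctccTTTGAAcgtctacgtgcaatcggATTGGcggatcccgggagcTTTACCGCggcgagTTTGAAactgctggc
Asf1b: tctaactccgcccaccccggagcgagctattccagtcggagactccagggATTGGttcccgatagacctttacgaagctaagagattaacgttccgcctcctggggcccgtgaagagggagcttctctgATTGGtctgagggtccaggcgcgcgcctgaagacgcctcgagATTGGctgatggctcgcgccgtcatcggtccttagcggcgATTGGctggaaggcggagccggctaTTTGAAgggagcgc
Dtl: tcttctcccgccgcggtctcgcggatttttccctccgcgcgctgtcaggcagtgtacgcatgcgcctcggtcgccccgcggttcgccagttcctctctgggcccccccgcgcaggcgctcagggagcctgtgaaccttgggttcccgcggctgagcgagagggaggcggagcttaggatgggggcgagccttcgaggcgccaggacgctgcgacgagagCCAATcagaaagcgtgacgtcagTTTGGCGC
CCAAT, which reads ATTGG on the other strand, occurs 3 times in the Cdk1 window, 4 times in that of Asf1b and 1 time each in those of Dtl and Chaf1a, and none of the 3 motifs was found in the window of Kif20b. A CCAAT was found in 17 of the 19 cell cycle genes with a window (89.5%), in 36.0% of the 50 called genes with one, and in 33.8% of all 32851 windows. TTTNNCGC was found in 2 of the 19 and in 4.28% of all windows, and TTTGAA in 6 of the 19 and in 16% of all. These are counts of letters, not of bound sites.

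Cdk1 (chromosome 10, 69336635 to 69352938) stood at 1.14, 0.998, 0.826 and 1.18 CPM in C57BL/6J males on 10% fat and at 2.78, 3.09, 1.72 and 4.25 CPM on 44% fat. In CAST/EiJ males it stood at 1.58, 5.23 and 4.63 CPM on 10% fat and at 2.49, 3.26, 3.42 and 2.39 CPM on 44% fat. The C57BL/6J groups did not overlap and the CAST/EiJ groups did. Cdk1 rose by 1.51 (SE 0.28, adjusted p = 0.00197) in C57BL/6J, and its value in CAST/EiJ was -0.39 (SE 0.28, adjusted p = 0.581). The difference was -1.90 (SE 0.40, adjusted p = 0.0212). CAST/EiJ exceeded C57BL/6J by 1.87 on 10% fat (adjusted p = 2.13e-06), and on 44% fat the strains differed by -0.03 (adjusted p = 0.933). The call held in 9 of the 15 fits without 1 library, and without CAST/EiJ 10% fat replicate 3 the adjusted p was 0.0872. Asf1b stood at 1.05, 0.975, 0.96 and 1.15 CPM and then at 1.59, 2.81, 1.43 and 2.78 CPM in C57BL/6J, with a difference of -1.93 (SE 0.39, adjusted p = 0.0189). Dtl stood at 1.17, 1.09, 1.2 and 1.83 CPM and then at 2.75, 4.17, 1.98 and 3.63 CPM, with a difference of -1.96 (SE 0.43, adjusted p = 0.0324). In both genes every C57BL/6J library on 44% fat was above every one on 10% fat. The differences of Asf1b and Dtl are larger than their C57BL/6J rise alone. They also take in the CAST/EiJ diet effect, which was not called. Chaf1a differed by -1.24 (SE 0.29, adjusted p = 0.0491) and Kif20b by -1.68, and the exchange factor gene Arhgef39 by -3.08. None of these was called without CAST/EiJ 10% fat replicate 3: the differences were -1.94 for Asf1b (adjusted p = 0.0735), -1.97 for Dtl, -1.34 for Chaf1a and -3.07 for Arhgef39 (adjusted p = 0.0769 each) and -1.63 for Kif20b (adjusted p = 0.119).

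Genes known to be active in macrophages are described next, of which Atp6v0d2, Il1rn and Ccl22 are among the 17 and Capg and Apobr are not. In bulk tissue, more cells of a type and more RNA per cell cannot be told apart. Atp6v0d2, a proton pump subunit of osteoclasts and macrophages, stood at 3.05, 1.32, 1.01 and 1.28 CPM in C57BL/6J males on 10% fat and at 2.89, 17, 1.87 and 8.6 CPM on 44% fat. In CAST/EiJ males it stood at 2.98, 0.751 and 6.11 CPM and then at 0.637, 0.411, 1.07 and 1.73 CPM. The groups overlapped in both strains, and the rise in C57BL/6J of 2.16 (SE 0.51, adjusted p = 0.0141) was carried by replicates 2 and 4. The difference was -3.95 (SE 0.79, adjusted p = 0.0189), and without CAST/EiJ 10% fat replicate 3 it was -3.16 with an adjusted p of 0.124. Il1rn, the gene of the interleukin-1 receptor antagonist, stood at 1.77, 0.627, 1.07 and 0.941 CPM in C57BL/6J males on 10% fat and at 2.34, 8.41, 2.1 and 8.25 CPM on 44% fat, and all 7 CAST/EiJ libraries were between 0.334 and 1.05 CPM. Its difference was -3.02 (SE 0.71, adjusted p = 0.0459), called in 4 of the 15 fits without 1 library. The chemokine gene Ccl22 stood at 1.24, 0.348, 0.533 and 1.1 CPM and then at 3.07, 3.52, 1.98 and 7.86 CPM in C57BL/6J, while no CAST/EiJ library exceeded 0.25 CPM. Its difference was -3.54 (SE 0.83, adjusted p = 0.0459). The differences of Il1rn and Ccl22 are larger than their C57BL/6J rise alone and also take in the uncalled CAST/EiJ diet effect. Capg, which encodes an actin-capping protein of macrophages, fell in CAST/EiJ (-0.96, adjusted p = 0.0437) and rose in C57BL/6J (0.82, adjusted p = 0.048). That fall rests on the 50.3 CPM of CAST/EiJ 10% fat replicate 3, since the other 2 libraries of the group stood at 16.1 and 16.4 CPM and those on 44% fat at 13.4 to 15.2 CPM. The Capg difference of -1.78 (SE 0.36, adjusted p = 0.0189) was -1.01 without that library, with an adjusted p of 0.183. Apobr, a lipoprotein receptor gene of macrophages, passed in neither strain alone and differed by -1.25 (adjusted p = 0.0281). Il1rn (-3.33, adjusted p = 0.0769), Ccl22 (-3.60, adjusted p = 0.0888) and Apobr (-0.86, adjusted p = 0.182) were not called either without that library.

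Others of the 17 encode secreted or membrane proteins. Serpinf1, which encodes pigment epithelium-derived factor, stood at 98.1, 97.7, 90.4 and 75.8 CPM in C57BL/6J males on 10% fat and at 212, 283, 106 and 236 CPM on 44% fat. In all 7 CAST/EiJ libraries it was between 36.7 and 48.6 CPM. It rose by 1.21 (SE 0.19, adjusted p = 0.000278) in C57BL/6J, its value in CAST/EiJ was -0.03, and the difference was -1.24 (SE 0.27, adjusted p = 0.0324). Paqr9, of the same receptor family as Paqr4, stood at 53, 51.4, 57 and 55 CPM and then at 149, 191, 80 and 191 CPM in C57BL/6J, and at 21.1 to 42.4 CPM in CAST/EiJ. Its difference was -1.27 (SE 0.30, adjusted p = 0.0491), called in 2 of the 15 fits without 1 library. In Serpinf1 and Paqr9 the C57BL/6J groups did not overlap, and the lowest library on 44% fat was replicate 3. F7, the gene of coagulation factor VII, stood at 0.769, 0.441, 0.746 and 0.758 CPM and then at 1.62, 7.94, 0.904 and 4.3 CPM in C57BL/6J. Its difference of -3.10 (SE 0.59, adjusted p = 0.0189) passed in 14 of the 15 fits. That difference is larger than the C57BL/6J rise alone and also takes in the CAST/EiJ diet effect, which was not called. Without CAST/EiJ 10% fat replicate 3 the F7 call was kept (-3.27, adjusted p = 0.0266), and those of Serpinf1 (-1.30, adjusted p = 0.0769) and Paqr9 (-1.44, adjusted p = 0.0735) were not.

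Rnase2a encodes an eosinophil-associated ribonuclease (chromosome 14, 51255266 to 51256112). It stood at 34.4 to 43.1 CPM in CAST/EiJ males on 10% fat and at 48.6 to 53.8 CPM on 44% fat. In C57BL/6J males it stood at 0.0466, 0.0928, 0.187 and 0.34 CPM on 10% fat and at 2.52, 7.82, 0.189 and 7.97 CPM on 44% fat, replicate 3 being within the range of the control diet. Its rise in C57BL/6J was 4.80 (SE 0.73, adjusted p = 0.000265), and the difference was -4.37 (SE 0.89, adjusted p = 0.0189). CAST/EiJ was higher by 7.87 on 10% fat and by 3.50 on 44% fat. The C57BL/6J levels on 10% fat lie near the floor of 3 counts, which is 0.0696 to 0.08 CPM in those libraries. The sizes of the rise, of the difference and of the 7.87 therefore rest on few counts. Rnase2a belongs to a family of near-identical genes, as do Aldh1a7, Klrb1a and Akr1c18, and how the authors' counting assigned reads shared within such families is not known here. The septin gene Sept9 stood at 72, 56.2, 71.2 and 64.3 CPM and then at 122, 145, 81 and 136 CPM in C57BL/6J, and its difference of -1.20 (SE 0.24, adjusted p = 0.0189) passed in 13 of the 15 fits. Nup210, a nuclear pore gene, stood at 4.94 to 8.24 CPM and then at 10.1 to 16.6 CPM in C57BL/6J, with a difference of -1.66 (SE 0.34, adjusted p = 0.0194). The uncharacterised gene D430019H16Rik stood at 20.7, 17.9, 26.9 and 33.1 CPM and then at 77, 49.6, 49.6 and 51.1 CPM in C57BL/6J, and at most at 1.4 CPM in CAST/EiJ, with a difference of -2.57 (SE 0.52). The ferric reductase gene Frrs1 differed by -0.91. For Sept9 and D430019H16Rik the difference is larger than the C57BL/6J rise alone and also takes in the uncalled CAST/EiJ diet effect. Without CAST/EiJ 10% fat replicate 3 the Sept9 call was kept (-1.29, adjusted p = 0.0435). Those of D430019H16Rik (-2.65, adjusted p = 0.0657), Rnase2a (-4.37, adjusted p = 0.0711), Nup210 (-1.57, adjusted p = 0.0769) and Frrs1 (-0.99, adjusted p = 0.0769) were not.

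Whole gene lists showed how far these single genes were part of a common direction. Of all genes tested, 2.10% rose and 1.69% fell in C57BL/6J males, the shares to set beside the counts below. In CAST/EiJ males 0.847% rose and 1.22% fell. All 21 tested genes of the cell cycle list had a negative difference, with a median of -1.41 against -0.0036 over all genes tested, and 1 member, Cdk1, passed the test. In C57BL/6J males all 21 were higher on 44% fat with a median of 1.20, and 7 rose. In CAST/EiJ males all 21 were lower with a median of -0.28, and none was called. The CAST/EiJ median depends on the libraries, since leaving out 1 at a time gave -0.57 to 0.24. Over the same fits the median in C57BL/6J stayed between 0.87 and 1.40, with 1 to 14 members called, and that of the difference between -1.74 and -0.77. In a fit to the 15 libraries alone the C57BL/6J median was again 1.20, and no member was called there in edgeR or limma-voom. The summed level of the list was 93 to 116 CPM and then 122 to 223 CPM in C57BL/6J, against 86.9 to 207 CPM and then 88.9 to 152 CPM in CAST/EiJ. The groups did not overlap in C57BL/6J, and in CAST/EiJ the control-diet libraries spanned the range of the others.

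The extracellular matrix list, with 35 tested genes of collagens and their partners, moved in C57BL/6J: 15 members rose there, with a median diet effect of 0.57, against 2 in CAST/EiJ, with a median of 0.10. Its summed level was 16700 to 19900 CPM and then 20200 to 29800 CPM in C57BL/6J, and 12000 to 15700 CPM and then 12800 to 16700 CPM in CAST/EiJ. The diet-by-strain difference had a median of -0.48, was negative in 25 of the 35 genes and passed the test in none. In C57BL/6J the count of 15 ranged from 2 to 18 when 1 library was left out, and was 7 without both libraries high in epididymal markers. On the 15 libraries alone it was 6 in edgeR and 0 in limma-voom. Among 18 genes of lipid-associated macrophages, which gather around lipid-laden adipocytes, 5 rose in C57BL/6J and 1 fell in CAST/EiJ. The count of 5 ranged from 1 to 6 when 1 library was left out. On the 15 libraries alone it was 0 in both edgeR and limma-voom. Atp6v0d2 was the 1 member with a called difference, and the list median of the difference was -0.59. Of 28 inflammatory mediators 4 rose in C57BL/6J and none was called in CAST/EiJ. On the 15 libraries alone 2 of 24 tested rose in C57BL/6J in edgeR and 0 in limma-voom. With all libraries the difference had a median of -0.52, negative in 23, with 1 member, Il1rn, called. Without CAST/EiJ 10% fat replicate 3 that median was -0.27, negative in 18, and neither this list nor that of lipid-associated macrophages had a called member. Of 18 general macrophage markers, none was called in C57BL/6J (median 0.27) and 1 rose in CAST/EiJ (median 0.13), and their summed levels were 1320 to 1940 CPM and then 1630 to 2300 CPM in C57BL/6J, with overlap, and 877 to 974 CPM and then 1010 to 1090 CPM in CAST/EiJ, without. What part the number of macrophages has in these counts was not tested.

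**Figure D4:**
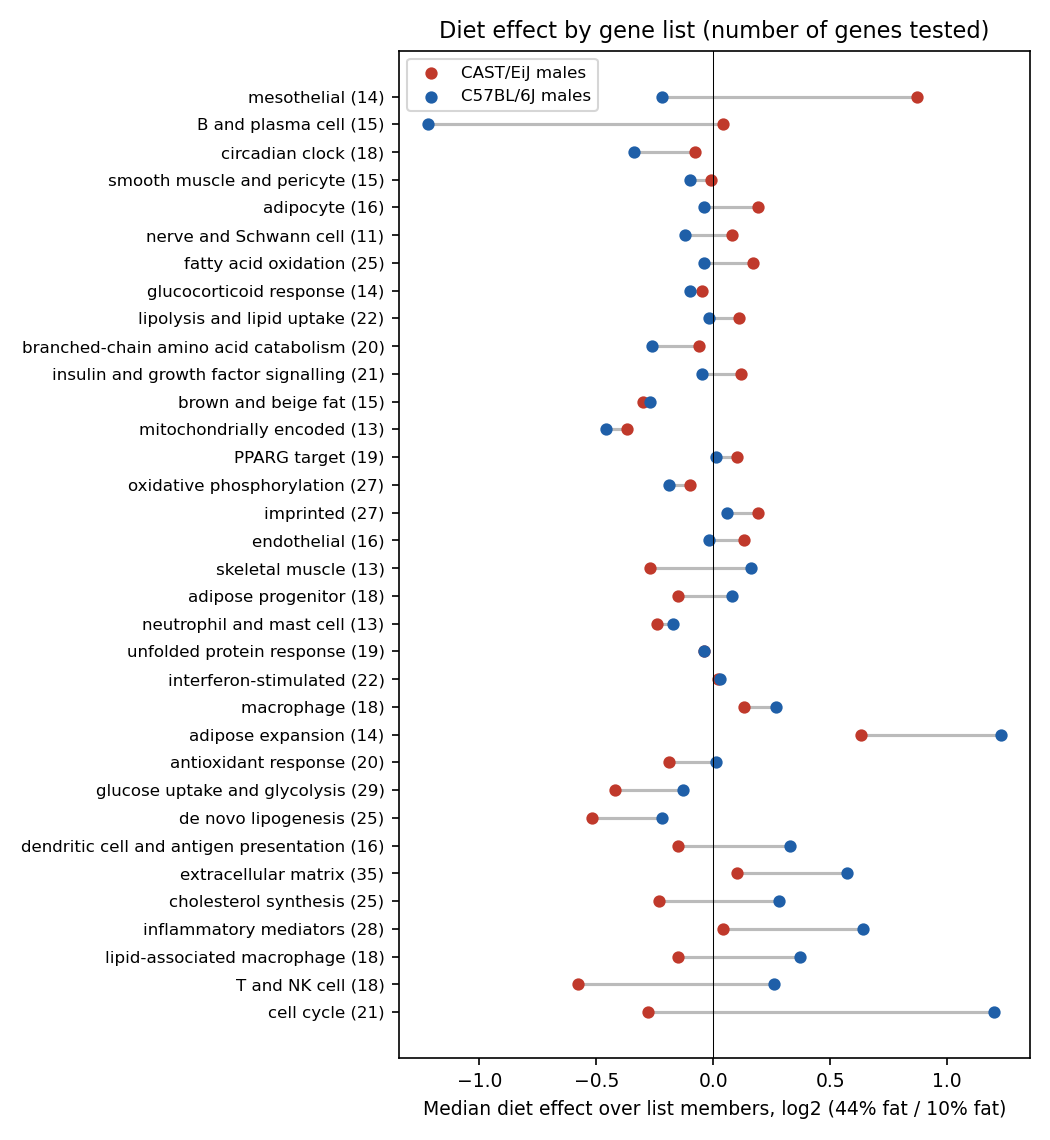
Median diet effect, as log2 44% over 10% fat, over the tested members of each gene list (number of genes in brackets) in CAST/EiJ and in C57BL/6J males, with lists of at least 10 tested genes ordered by their median diet-by-strain difference. The cell cycle list, at the bottom, has medians of -0.28 in CAST/EiJ and 1.20 in C57BL/6J, and the mesothelial list, at the top, 0.87 and -0.22.

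Mesothelial markers, of the cell layer that covers the fat pad, went the other way. All 14 had a positive difference, with a median of 1.09, and none passed the test. Of these 14 genes 2 rose in CAST/EiJ (median 0.87) and 1 fell in C57BL/6J (median -0.22). Their summed level was 215 to 295 CPM and then 356 to 465 CPM in CAST/EiJ, groups that did not overlap, and 285 to 634 CPM and then 353 to 607 CPM in C57BL/6J, groups that did. Of the 25 genes of fatty acid synthesis 4 fell in CAST/EiJ (median -0.52) and 2 in C57BL/6J (median -0.22), with no called difference and a median of -0.34. That median ranged from -0.44 to 0.10 when 1 library was left out, so its sign is not fixed. Of 29 genes of glucose uptake and glycolysis, 4 fell in each strain, against 1.22% of all genes tested in CAST/EiJ and 1.69% in C57BL/6J. The median difference was -0.24. Without CAST/EiJ 10% fat replicate 1 that median was -0.02, and 0 members were called in CAST/EiJ. Of 14 genes of adipose expansion, 3 rose in CAST/EiJ (median 0.63) and 7 in C57BL/6J (median 1.23), with a median difference of -0.21 and no call. Of 25 genes of cholesterol synthesis 23 had a negative difference (median -0.49), and none was called. Of the 18 T and NK cell markers 1 fell in CAST/EiJ, with a median difference of -0.82 that was -0.09 without C57BL/6J 44% fat replicate 3, whose summed level of 37.3 CPM was the highest of its group. Of the 15 B and plasma cell markers 1 fell in C57BL/6J, with a median difference of 0.86 that ranged from 0.54 to 1.88 when 1 library was left out. The summed level of these markers went the other way in C57BL/6J, from 300 to 525 CPM on 10% fat to 580 to 688 CPM on 44% fat. Cell cycle (1 of 21), lipid-associated macrophage (1 of 18) and inflammatory mediators (1 of 28) were the lists with a called member, and no other list had one. Of all genes tested 0.330% were called for the difference. With 36 lists searched, single calls are not read as a result about these lists.

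Of a panel of 24 metabolic, hormone and immune genes, Marc1 was the one with a called difference. Several of the others responded in both strains or in 1, with no test passed for the difference between them. The elongase gene Elovl6 stood at 297, 98.4 and 130 CPM in CAST/EiJ males on 10% fat and at 17.1, 25, 14.4 and 34.6 CPM on 44% fat, without overlap, a change of -2.94 (adjusted p = 0.00164). In C57BL/6J its change was -1.38 (adjusted p = 0.104), and the difference was -1.57 (SE 0.72, adjusted p = 0.411). Acaca, the gene of acetyl-CoA carboxylase, fell in C57BL/6J (-1.24, adjusted p = 0.03), and its difference was 0.15. The fructose transporter gene Slc2a5 fell in both strains (-3.06 in CAST/EiJ, adjusted p = 0.0277, and -4.38 in C57BL/6J, adjusted p = 0.0144). Mest and Sfrp5, which mark expanding adipocytes, rose in both: Mest by 3.24 (adjusted p = 0.00587) and 2.24 (adjusted p = 0.0246), and Sfrp5 by 2.21 (adjusted p = 0.0467) and 3.13 (adjusted p = 0.00187).

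The metalloelastase gene Mmp12, made by macrophages, came closest to the threshold. It stood at 7.9, 1.35, 1.79 and 2.93 CPM in C57BL/6J males on 10% fat and at 14.7, 66.5, 5.69 and 54.4 CPM on 44% fat, and at 0.743 to 4.11 CPM in CAST/EiJ. It rose by 3.33 (adjusted p = 0.00187) in C57BL/6J, and the difference of -4.04 (SE 0.98) had an adjusted p of 0.0505 in edgeR and 0.0264 in DESeq2. Itgax, which encodes the integrin CD11c of inflammatory macrophages, rose in C57BL/6J by 1.56 (adjusted p = 0.00788), and the chemokine gene Ccl2 by 2.11 (adjusted p = 0.00315), with differences of -1.61 (adjusted p = 0.198) and -1.84 (adjusted p = 0.251). Irs1, an adaptor of the insulin receptor, stood at 73.3, 88.9 and 88 CPM and then at 144, 109, 129 and 106 CPM in CAST/EiJ, without overlap, and at 69.1 to 119 CPM and then 56.8 to 85.9 CPM in C57BL/6J, with overlap. Its difference of 1.02 (SE 0.25) had an adjusted p of 0.0613. Leptin (Lep) stood at 492, 400, 737 and 936 CPM and then at 1830, 2800, 814 and 2360 CPM in C57BL/6J (1.61, adjusted p = 0.056) and at 108 to 585 CPM and then 219 to 1240 CPM in CAST/EiJ (0.59, adjusted p = 0.674). The Lep difference was -1.02 (SE 0.71, adjusted p = 0.636). Adiponectin (Adipoq) had a difference of 0.41 (SE 0.18, adjusted p = 0.383). The fatty acid synthase gene Fasn (-0.54), the desaturase gene Scd1 (0.03), the lipogenic regulators Srebf1 (-0.22), Mlxipl (0.07) and Thrsp (-0.48), the glucose transporter gene Slc2a4 (-0.07), the lipase gene Pnpla2 (0.16), the fatty acid receptor gene Cd36 (0.11), the uncoupling protein gene Ucp1 (0.12), Irs2 (0.87), the lipid receptor gene Trem2 (-0.68) and the collagen gene Col6a3 (-0.63) did not pass the test either. Of these, Col6a3 rose in C57BL/6J (0.94, adjusted p = 0.0352).

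The same diet-by-strain difference in females, over 16 other libraries, was called for 1417 genes (7.55%), 538 positive (2.87%) and 879 negative (4.68%). Of the 62 genes of the males 48 had the same sign in females, and 8 were called there, with the background for females at 7.55%. All 8 were among the 34 genes in which CAST/EiJ 10% fat replicate 3 did not stand at least 3 times above the other CAST/EiJ males. Without that library only Marc1 and Sept9 of the 8 kept their call in males. Marc1 differed by -4.84 (SE 0.6, adjusted p = 1.33e-05) in females, with a diet effect of -4.27 in CAST/EiJ (adjusted p = 9.62e-08) and a value of 0.58 in C57BL/6J (adjusted p = 0.423). The test of males minus females for Marc1 had an adjusted p of 0.846 in edgeR. The other 7 are Sept9 (-1.25 in females, adjusted p = 0.00124), Tppp (1.64, adjusted p = 0.001), Aldh1a7 (-1.66, adjusted p = 0.00194), Nup210 (-1.43, adjusted p = 0.00771), D430019H16Rik (-3.93, adjusted p = 0.0111), Paqr9 (-0.98, adjusted p = 0.0303) and Rnase2a (-4.18, adjusted p = 0.0426).

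The test of males minus females called no gene in edgeR (0.00%), with 1674 genes at an unadjusted p below 0.05, none in limma-voom and 59 in DESeq2. Of the 62 genes, 38 had an unadjusted p below 0.05 in edgeR, and DESeq2 called 6, with Cdk1, Rarres2, Arhgef39, Basp1 and Gcnt4 among them. For Cdk1 and Rarres2 of the male list the DESeq2 adjusted p was 0.00665 and that of edgeR 0.0939. Cdk1 had a difference of -1.90 in males and 0.76 (SE 0.38, adjusted p = 0.224) in females, and Rarres2 0.83 and -0.34 (adjusted p = 0.202). Diet changed 1232 genes in CAST/EiJ females (6.56%), 398 up (2.12%) and 834 down (4.44%), and 1368 in C57BL/6J females (7.29%), 727 up (3.87%) and 641 down (3.42%). Rarres2 rose in females of both strains, by 0.50 in CAST/EiJ (adjusted p = 0.00539) and 0.85 in C57BL/6J (adjusted p = 6.48e-05). Both genes were chosen in the male libraries, which the sex comparison shares, so the test is not independent of the choice. The cell cycle list had a median difference of -0.42 in females with no call, and diet medians of -0.40 in CAST/EiJ and -0.04 in C57BL/6J females. In females 12 of the 25 cholesterol synthesis genes and 9 of the 25 fatty acid synthesis genes had a called negative difference, with medians of -1.24 and -0.97, against none of either list in males. The edgeR test of males minus females called none of these genes, so a difference between the sexes is not shown.

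**Figure D5:**
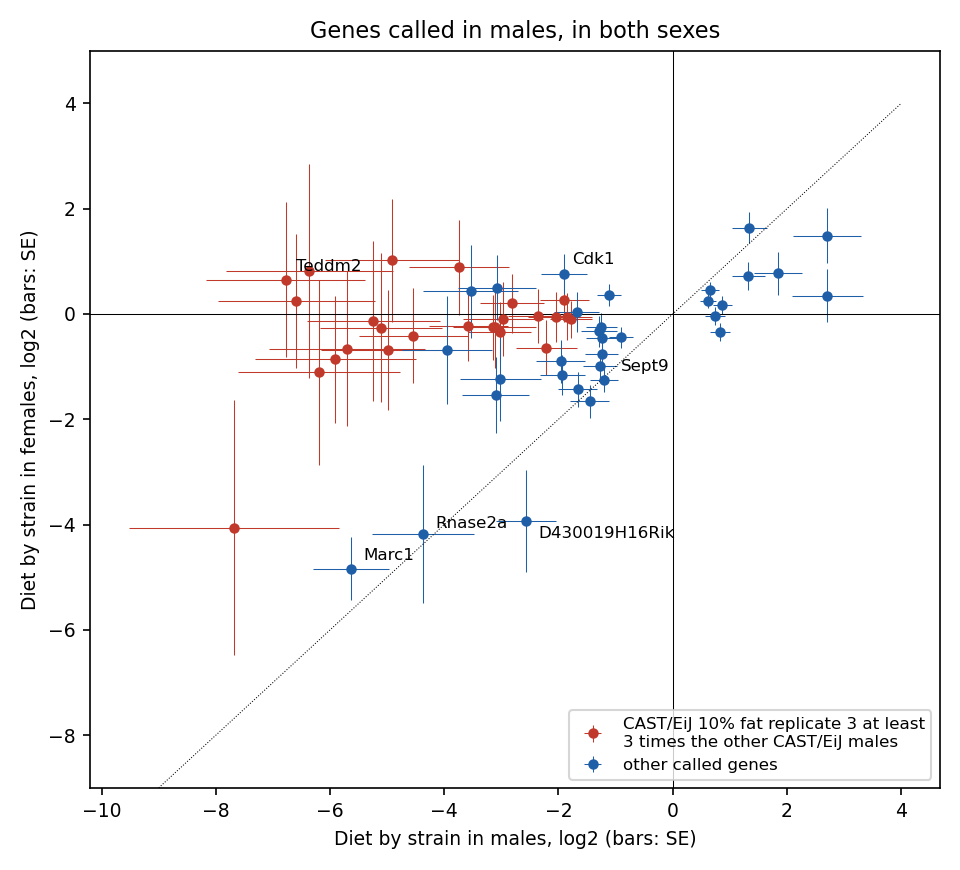
Diet-by-strain difference in males (horizontal axis) against that in females (vertical axis), as log2, for 57 of the 62 genes, with bars of 1 SE and colours as in the plot of diet effects. Genes with a group all at 0 or with an SE above 5 in females are left out, and Marc1 lies far below 0 in both sexes, at -5.63 and -4.84.

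The levels themselves differed widely. Between the strains, 8765 genes (46.7%) differed in males on 10% fat, 4415 higher (23.5%) and 4350 lower (23.2%) in CAST/EiJ, and 9657 (51.5%) on 44% fat, 4688 higher (25.0%) and 4969 lower (26.5%). By the values above, the strain difference missed the threshold for Marc1 on 10% fat and for Cdk1 on 44% fat, and passed it on the other diet. Rarres2 differed by -1.65 and then by -0.82, and Serpinf1 by -1.13 and then by -2.37, all with adjusted p of at most 2.15e-05 in edgeR. Whether reads of CAST/EiJ were aligned to that strain's own sequence is not stated in the labels.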

How the data were processed

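PolyA RNA of the gonadal fat pad was sequenced in 47 libraries, and the 15 of CAST/EiJ and C57BL/6J males enter this comparison. The authors deposited estimated counts per gene, of which 21.5% are not whole at a tolerance of 1e-06, so they were rounded. The authors also deposited normalized values on a log2 scale, which were used only to compare replicates (correlation within groups 0.984 to 0.997). Per the submitters' processing notes the build was GRCm38 and DESeq2 was used, with no role or version given. No aligner, counter or strand setting is named in the labels.

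Of 22376 genes, 18769 passed edgeR's filterByExpr (minimum count 10). Groups were 12 combinations of strain, sex and diet, fitted together over all 47 libraries so that they share one estimate of the spread (35 residual degrees of freedom). edgeR 4.0.16 (R 4.3.3) with TMM scaling and the quasi-likelihood test gave all p-values, adjusted over all genes tested by Benjamini and Hochberg, with calls below 0.05. DESeq2 1.42.0 and limma-voom (limma 3.58.1) were alternatives. The script was tested on simulated data. Totals of 32.7 M to 56 M counts limit precision only for low genes: 3 counts are the floor. Counts of any 2 libraries of 1 group differed beyond sampling noise (chi-square per degree of freedom 12.6 to 192). The alternatives tried were other scaling, filters and tools, fewer libraries, a term for sample-number range, and leaving out each library.

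Genes named by rule were a panel of 24 genes, protein-coding genes averaging 1 or more in log2 CPM that were called in every fit without 1 library (Marc1), up to 4 called members of each gene list (Cdk1, Atp6v0d2, Il1rn) and the gene called in both strains in opposite directions (Capg). The comparison and the lists were chosen with earlier results of these data known. Promoter windows are from RefSeq GRCm38.p6, matched by Entrez gene identifier and chromosome for 50 of the 62 called genes and 19 of the 21 cell cycle genes. Gene positions are from the deposited annotation, on GRCm38. One called gene is not reported here.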

Additional observations from a re-analysis of the deposited data

Results flagged for a closer look

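Among 252 groups of 4 libraries of the named genes, 17 (6.75%) had 1 library far from the other 3, by a gap to the nearest above Dixon's critical value, where chance flags about 1 in 20. In C57BL/6J males on 44% fat replicate 3 was apart for Acaca (1390 CPM), Mlxipl (90.4 CPM), Mest (163 CPM) and Irs1 (85.9 CPM), each on the side of the control-diet group. In the same group replicate 4 was apart for Emid1 (0.896 CPM) and replicate 1 for D430019H16Rik (77 CPM). In C57BL/6J males on 10% fat replicate 1 was apart for Atp6v0d2 (3.05 CPM), Col6a3 (309 CPM) and Ceacam19 (0.0233 CPM), replicate 2 for F7 (0.441 CPM) and Aldh1a7 (324 CPM), and replicate 4 for Dtl (1.83 CPM). In CAST/EiJ males on 44% fat replicate 4 was apart for Il1rn (0.837 CPM), Itgax (6.64 CPM) and Serpinf1 (48.6 CPM), and replicate 2 for Nxf3 (0.0514 CPM) and St8sia6 (1.41 CPM). CAST/EiJ males on 10% fat have 3 libraries and were not examined in this way.

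The diet effect differed between the strains, by the edgeR test of the difference itself, for Marc1 (-5.63), Atp6v0d2 (-3.95), Il1rn (-3.02), Cdk1 (-1.90) and Capg (-1.78), all as log2 in CAST/EiJ minus C57BL/6J. Of these only Marc1 was also called without CAST/EiJ 10% fat replicate 3. None of them was called in limma-voom or in the edgeR fit to the 15 libraries alone.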

How the results depend on the processing

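The number of genes called for the diet-by-strain difference in males (62) was 62 with DESeq2 size factors, 53 with a minimum of 1 CPM and 61 with robust estimation. It was 37 with library totals, 41 with no filter and 29 with a term for sample-number range. DESeq2 gave 190 and limma-voom 0. The 23 male libraries alone gave 2 and the 15 libraries alone 0. The last 3 alternatives were chosen after seeing the data: leaving out both libraries high in epididymal markers gave 6, DESeq2 on the 15 libraries 139 and limma-voom on them 0. In the order DESeq2, limma-voom, 15 libraries, 23 libraries, both left out, DESeq2 on 15 and limma-voom on 15, the count for diet in CAST/EiJ males (388) was 641, 175, 116, 182, 104, 599 and 79, and that in C57BL/6J males (711) was 1155, 404, 102, 224, 372, 1123 and 43. The share of CAST/EiJ calls that were higher was 41.0% in the reported fit, 69.0% with the 15 libraries alone and 25.0% with both left out.

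Without 1 library at a time, the counts ranged from 5 to 160 for the difference in males, from 112 to 650 for diet in CAST/EiJ, from 104 to 1529 for diet in C57BL/6J, from 670 to 2367 for the difference in females, from 0 to 94 for males minus females, from 7610 to 8782 for strain on 10% fat and from 8816 to 9804 on 44% fat. The count for the difference in males was 5 without CAST/EiJ 10% fat replicate 3, 7 without C57BL/6J 44% fat replicate 2 or 4, 121 and 125 without CAST/EiJ 10% fat replicate 1 or 2, 160 without C57BL/6J 44% fat replicate 3, and 24 to 45 without any 1 of the others. For diet in CAST/EiJ it was 650 and 112 without 10% fat replicate 2 or 3 and 197 and 178 without 44% fat replicate 2 or 4. For diet in C57BL/6J it was 429, 337 and 473 without 10% fat replicate 2, 3 or 4, and 458, 146, 1529 and 104 without 44% fat replicate 1, 2, 3 or 4. Males minus females gave 59 in DESeq2. The cause was not tested.

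Without CAST/EiJ 10% fat replicate 3, and without both libraries, 4 genes changed sign: Teddm2 (0.77 and 0.72), 9230104L09Rik (0.44 and 0.63), St8sia6 (0.05 and 0.14) and Akr1c18 (0.41 and 0.56). Over all fits without 1 library their lowest values were -7.37, -6.95, -3.5 and -6.51. No paired analysis was possible because the labels carry no replicate numbers that pair single libraries across groups; the nearest to a block is the sample-number range, with which 29 genes were called. With 3 and 4 libraries a group, small differences are beyond the depth of replication, and genes under 1 CPM rest on few counts.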
